A study of Mus musculus with 6 samples.

Results

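The 9 genes described here encode complement proteins and the receptors for their activation fragments: the 3 chains of C1q (C1qa, C1qb and C1qc), the components C3, C4b, Cfb and Cfp, and the anaphylatoxin receptors C3ar1 and C5ar1. They were chosen by gene symbol, with earlier results of these data known, and all 9 of 9 were found among the 21358 entries of the table. RNA was sequenced from whole B16-F10 tumors, a mouse melanoma cell line grown under the skin of C57/BL6 mice, taken at day 12, with 3 tumors in each of 2 groups and 1 library per tumor. All the mice had been lymphodepleted by total body irradiation and had received pmel-1 T cells by adoptive cell transfer (ACT), cells that carry a transgenic T cell receptor against the melanoma antigen gp100, when their tumors reached at least 150 mm3. Mice of the ACT + IL-2 group were given IL-2, at 0.4 mg/kg, in 3 doses per 9-day cycle. The ACT + NKTR-214 group received NKTR-214, IL-2 joined to releasable polyethylene glycol chains, at 0.8 mg/kg in 1 dose per 9-day cycle. IL-2 was injected into the peritoneum and NKTR-214 into a vein. Every tumor analysed here had received 1 of these agents, so each difference is between the 2 agents with their own doses, routes and schedules. The host was irradiated, and the sources used here do not give the share of its own myeloid cells that remained.

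Complement is a cascade of plasma proteins that tags and lyses targets and calls in leukocytes. C1q binds antibody complexes or dying cells and starts the classical pathway, in which C4 and C2 form a convertase that cleaves C3. Factor B and properdin build and hold the convertase of the alternative pathway, and the fragments C3a and C5a act on receptors of myeloid cells. Much of the complement in plasma comes from the liver, whereas C1q and properdin are made largely by myeloid cells in the tissues.

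Values are FPKM, fragments for each kilobase of a gene's exons, normalised to library depth, which are comparable between genes of different length. The step between the lowest values of each column gave an estimated 20800000 to 24700000 reads per library. The lowest value of the 9 genes, C5ar1 in ACT + IL-2 replicate 3, corresponds to about 185 reads with a counting error of 7.35%, so the spread between tumors is the larger error. The sum of FPKM was lowest in ACT + IL-2 replicate 2 (176420) and highest at 246514. Log2 fold changes are ACT + NKTR-214 minus ACT + IL-2 on the log2(FPKM + 1) scale, which understates the change of low genes. They were tested with limma, with Benjamini-Hochberg adjustment over the 14172 genes with a mean of at least 0.1 FPKM. In bulk tumor RNA, fewer cells of a type and less RNA per cell cannot be told apart.

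The promoters of C1qb and C3 are shown because the first belongs to a gene that moved with its neighbours and the second to the gene with the largest fold change of the 9. Each is the 250 bases before the RefSeq start site on the minus strand of GRCm38.p6, C1qb at chr4:136886201-136886450 and C3 at chr17:57228137-57228386. Capitals mark a PU.1 motif (GAGGAA) in C1qb and a C/EBP motif (TTGCNNAA) in C3. PU.1 and C/EBP are transcription factors found in myeloid cells, but not only there.
C1qb: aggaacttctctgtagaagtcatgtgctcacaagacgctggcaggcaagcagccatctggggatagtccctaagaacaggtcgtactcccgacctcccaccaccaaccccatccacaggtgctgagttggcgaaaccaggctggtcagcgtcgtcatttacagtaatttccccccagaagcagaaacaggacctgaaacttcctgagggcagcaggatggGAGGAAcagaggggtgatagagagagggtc
C3: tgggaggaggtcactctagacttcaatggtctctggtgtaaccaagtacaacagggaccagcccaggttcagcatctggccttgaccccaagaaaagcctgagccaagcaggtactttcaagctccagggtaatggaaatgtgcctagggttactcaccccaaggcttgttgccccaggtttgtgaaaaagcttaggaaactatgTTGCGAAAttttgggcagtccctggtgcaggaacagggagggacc
Both strands were searched. The PU.1 motif begins 30 bases before the C1qb start, and C1qc has 1 as well, 193 bases before its RefSeq start. None lies in the same window of C3, Cfp, C3ar1 or C5ar1. It is a common string, present in 23.3% of the 32851 promoters of the table. The C/EBP motif, 45 bases before the C3 start, is in 9.56% of promoters and in no other of the 6 members with a promoter entry. A gamma-activated site (TTCNNNGAA, in 7.02% of promoters) was in none of the 6. The interferon-stimulated response element (GAAANNGAA, in 7.13%) was in that of C5ar1 alone. These are matches of letters, and binding was not measured.

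All 9 genes were higher in ACT + NKTR-214 tumors and 0 were lower, against 20.7% of all tested genes called higher and 8.28% called lower. Because the 9 were chosen with earlier results of these data known, this contrast describes them and is not a test of the list. The lower share is the less stable: 1173 genes were called lower beside 2940 higher, but 3774 beside 3231 with 75th percentile scaling and 4525 beside 2691 with quantile normalization. Leaving out ACT + IL-2 replicate 3 gave 636 lower, leaving out replicate 2 of that group gave 1996, and 680 were lower when ACT + NKTR-214 replicate 2 was left out. For all 9, every ACT + NKTR-214 tumor lay above every ACT + IL-2 tumor, which was the case for 27.1% of all tested genes. Their log2 fold changes ran from 1.03 for C4b to 2.70 for C3 with a median of 1.67, beside a median of 0.05 over all genes tested. The calls rest on the variance that limma shares between genes. Without that moderation 0 of the 9 passed (adjusted p 0.0604 to 0.163), and without the filter on low genes 2 did, C3 and C4b. Leaving out ACT + IL-2 replicate 2 left 6 of the 9, with C1qb, C1qc and C5ar1 at adjusted p of 0.0571, 0.0554 and 0.086 by limma.

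**Figure D1:**
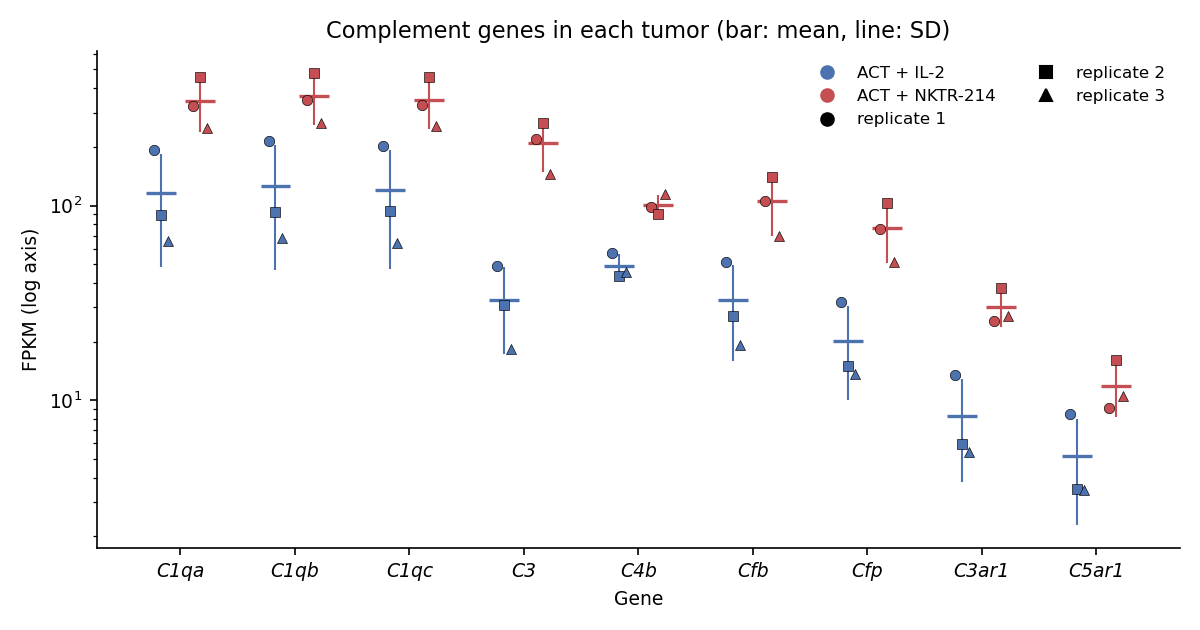
FPKM (log axis) of the 9 complement genes in each of the 6 tumors, with blue for ACT + IL-2, red for ACT + NKTR-214 and a marker shape for each replicate number. Horizontal bars are means and vertical lines SD (n = 3), and for every gene the 3 red points lie above the 3 blue ones, most narrowly for C5ar1.

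The C1q chains were the most abundant of the 9 genes in both groups. They lie side by side on the minus strand of chromosome 4 within 18.7 kb (GENCODE vM21, GRCm38): C1qb at chr4:136880129-136886187, C1qc at chr4:136889804-136893065 and C1qa at chr4:136895917-136898803. C1qa, the A chain, measured 192, 89.3 and 65.5 FPKM in the ACT + IL-2 tumors and 326, 455 and 249 FPKM in the ACT + NKTR-214 tumors, given here and below in the order of replicates 1 to 3. The ACT + IL-2 tumors spread widely, with replicate 1 standing highest, yet the groups did not overlap. Mean C1qa was 116 ± 67.3 FPKM and 343 ± 104 FPKM (SD, n = 3), a log2 fold change of 1.67 (SE 0.32, limma adjusted p = 0.000885). C1qb, the B chain, measured 215, 93.0 and 68.2 FPKM against 348, 478 and 267 FPKM. C1qc, the C chain, measured 203, 93.9 and 64.2 FPKM against 327, 456 and 257 FPKM. Both followed C1qa tumor by tumor, without overlap between groups. Their log2 fold changes were 1.66 for C1qb (SE 0.33, limma adjusted p = 0.00123) and 1.65 for C1qc (SE 0.33, limma adjusted p = 0.00121).

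C1q is assembled from equal numbers of its 3 chains, and their transcripts kept a near-constant ratio. C1qa over C1qb was between 0.893 and 0.960 in the 6 tumors, and C1qc over C1qb between 0.938 and 1.01. Within a group, in contrast, the levels themselves differed from tumor to tumor, as C1qb did between 68.2 and 215 FPKM in ACT + IL-2. The other gene tested with its start within 100 kb of the C1qb start was Ephb2, an ephrin receptor. It was low, with means of 0.528 and 0.582 FPKM, and had a log2 fold change of 0.06 (limma adjusted p = 0.739).

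C3 is the protein on which the pathways converge, and it showed the largest fold change of the 9. The gene lies at chr17:57203970-57228136 on the minus strand. C3 measured 49.1, 31.0 and 18.3 FPKM in ACT + IL-2 and 220, 264 and 144 FPKM in ACT + NKTR-214. The lowest ACT + NKTR-214 tumor stood well above the highest ACT + IL-2 tumor. The mean rose from 32.8 ± 15.5 to 209 ± 60.4 FPKM, a ratio of 6.39, and the log2 fold change was 2.70 (95% interval 2.10 to 3.31, limma adjusted p = 3.73e-06). Leaving out 1 tumor at a time moved it between 2.35 and 3.04.

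C4b encodes C4, the component cleaved by the C1 complex, and it lies at chr17:34728380-34743882. C4b measured 57.2, 43.7 and 45.6 FPKM in ACT + IL-2 and 98.2, 89.9 and 114 FPKM in ACT + NKTR-214. It was the most even of the 9 within groups, and the ACT + NKTR-214 tumor highest in the other genes, replicate 2, was the lowest here. The means were 48.8 ± 7.34 and 101 ± 12.4 FPKM, a log2 fold change of 1.03 (SE 0.17, limma adjusted p = 0.0002). Of the 50-base windows of its exons, 34.6% also occur in the neighbouring copy C4a, so the split of reads between these genes is uncertain. C4a itself was listed at 0.166 ± 0.0565 and 0.276 ± 0.0657 FPKM and did not pass the test (log2 fold change 0.13, limma adjusted p = 0.288).

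The alternative pathway was represented by factor B and properdin. Cfb, the protease of the C3 convertase of that pathway, lies at chr17:34856374-34862518. Its levels were 51.3, 27.1 and 19.3 FPKM in ACT + IL-2 and 105, 141 and 69.8 FPKM in ACT + NKTR-214. The groups did not overlap, and the means were 32.6 ± 16.7 and 105 ± 35.5 FPKM (log2 fold change 1.72, SE 0.29, limma adjusted p = 0.000309). In GENCODE vM21, 73.0% of the 50-base windows of Cfb are also in the overlapping gene Gm20547, which the table does not list, and how the authors' counting treated such reads is not given in the sources used here.

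Cfp encodes properdin, which stabilizes that convertase, and lies at chrX:20925454-20931555. Cfp measured 31.9, 14.9 and 13.7 FPKM in ACT + IL-2 and 75.8, 103 and 51.0 FPKM in ACT + NKTR-214. Every tumor of the second group exceeded those of the first. Its means were 20.2 ± 10.2 and 76.6 ± 26.0 FPKM, and its log2 fold change of 1.92 (SE 0.28, limma adjusted p = 7.5e-05) was second to that of C3 among the 9.

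The receptors were the lowest of the 9 in level. C3ar1, the receptor for C3a, lies at chr6:122847138-122856161. C3ar1 measured 13.5, 5.98 and 5.44 FPKM in ACT + IL-2 and 25.6, 37.6 and 27.2 FPKM in ACT + NKTR-214, without overlap. The means were 8.30 ± 4.49 and 30.1 ± 6.51 FPKM, a log2 fold change of 1.83 (SE 0.25, limma adjusted p = 4.29e-05). C5ar1, the receptor for C5a, lies at chr7:16246743-16259540. It measured 8.45, 3.51 and 3.47 FPKM against 9.10, 16.02 and 10.5 FPKM. Here the groups nearly touched, with the lowest ACT + NKTR-214 tumor 1.08 times the highest ACT + IL-2 tumor. The means were 5.14 ± 2.86 and 11.9 ± 3.66 FPKM, a log2 fold change of 1.13 (SE 0.26, limma adjusted p = 0.00361).

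The pair of receptors moved unequally. C3ar1 exceeded C5ar1 by 0.62, 0.63 and 0.53 on the log2(FPKM + 1) scale in the ACT + IL-2 tumors and by 1.40, 1.18 and 1.29 in the ACT + NKTR-214 tumors. The gap was thus wider in all 3 ACT + NKTR-214 tumors, by 0.70 on average (exact two-sided permutation p = 0.1, the smallest that 3 against 3 tumors allow). C3 was compared in the same way with the C1q chains and with C4b. C3 lay below the mean of the C1q chains by 2.03, 1.54 and 1.80 in ACT + IL-2 and by only 0.60, 0.81 and 0.83 in ACT + NKTR-214, a difference of 1.04 between groups (exact permutation p = 0.1). Against C4b, C3 moved from below it in every ACT + IL-2 tumor to above it in every ACT + NKTR-214 tumor, a difference of 1.67 (exact permutation p = 0.1). These comparisons were chosen after the values were seen.

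In order of mean FPKM, the ACT + IL-2 tumors had C1qb, C1qc, C1qa, C4b, C3, Cfb, Cfp, C3ar1 and C5ar1. Neighbours in that order had ranges that did not overlap only between C1qa and C4b and between Cfp and C3ar1. The ACT + NKTR-214 order placed C3 and Cfb before C4b and was otherwise the same. There the ranges did not overlap between C3 and Cfb, between Cfp and C3ar1, and between C3ar1 and C5ar1. All other neighbours had overlapping ranges, although within each ACT + IL-2 tumor C4b exceeded C3, Cfb exceeded Cfp and C3ar1 exceeded C5ar1, and within each ACT + NKTR-214 tumor the C1q chains kept their order and C1qa exceeded C3.

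Of 44 other complement genes listed by pathway, 28 were high enough to test, 17 were higher in ACT + NKTR-214 and 0 were lower by limma, with 0 lower at an unadjusted p under 0.05 too. These counts, and those of the sublists and cell type markers given later, stand beside 20.7% of all tested genes called higher and 8.28% called lower. The 28 genes had a median log2 fold change of 0.59, and 6 of the 44 were listed at 0 in all tumors. Of the 28, 15 had all ACT + NKTR-214 tumors above all ACT + IL-2 tumors (27.1% over all tested genes), C4a among them without passing the test. Leaving out ACT + IL-2 replicate 2 left 11, without the filter on low genes 5 passed, and without moderation 0 did.

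**Figure D2:**
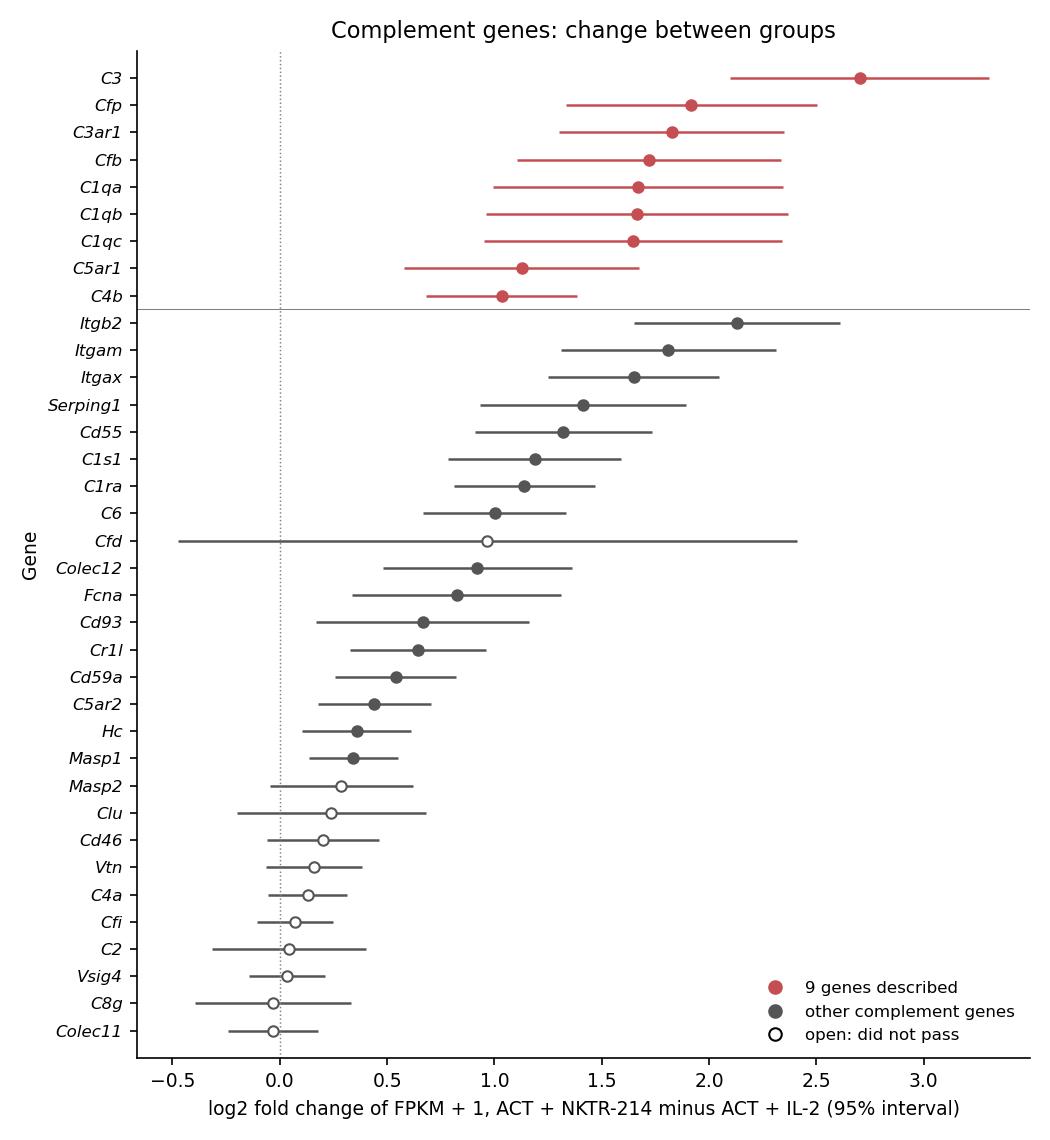
Log2 fold change of FPKM + 1 (ACT + NKTR-214 minus ACT + IL-2) with 95% intervals for the 9 genes (red, above the line) and 27 other complement genes tested (grey), filled where limma's adjusted p was under 0.05. All 9 red points and 16 grey points are filled, C2 sits at 0.04, and Cfd has the widest interval.

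In the classical and lectin pathways, 5 of 9 genes tested rose. The C1 proteases rose, C1ra from 11.0 ± 2.16 to 25.3 ± 1.67 FPKM (log2 fold change 1.14, limma adjusted p = 4.4e-05) and C1s1 from 11.6 ± 3.34 to 27.3 ± 5.61 FPKM (1.19, limma adjusted p = 0.00019). Of their windows, 50.8% and 35.1% also occur in other genes, mainly the copies C1rb and C1s2 and, for C1s1, Gm16567, so their levels are uncertain. The means of C1rb and C1s2 were below the filter. Colec12, a scavenger receptor with a collectin domain, had a log2 fold change of 0.92 (limma adjusted p = 0.0032). Fcna, a ficolin, had one of 0.82 with groups that overlapped (limma adjusted p = 0.0131). The lectin pathway protease Masp1, below 1 FPKM and named after its value was seen, had one of 0.34 (limma adjusted p = 0.014).

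C2, the protease partner of C4 and the counterpart of Cfb in the classical pathway, did not pass the test. C2 measured 82.4, 72.6 and 90.1 FPKM in ACT + IL-2 and 83.4, 72.5 and 97.6 FPKM in ACT + NKTR-214. The tumors of the groups interleaved, and the log2 fold change was 0.04 (95% interval -0.31 to 0.40, limma adjusted p = 0.881). C2 (chr17:34862604-34898265) and Cfb are adjacent on the same strand and 85 bases apart, and 41.5% of the C2 windows are shared with Gm20547 or Zbtb12. On the log2 scale Cfb lay below C2 by 0.67, 1.39 and 2.17 in the ACT + IL-2 tumors. In ACT + NKTR-214 it lay above C2 by 0.33 and 0.95 in replicates 1 and 2 and below it by 0.48 in replicate 3. The difference between Cfb and C2 thus moved by 1.68 without overlap (exact permutation p = 0.1), a comparison chosen after the values were seen. Of the 11 other genes tested with a GENCODE start within 100 kb of the Cfb start, 0 were called higher, 1 was called lower, the zinc finger gene Zbtb12 (log2 fold change -0.48, limma adjusted p = 0.0344), and 10 were not called. Over all tested genes the shares were 20.7% called higher and 8.28% called lower.

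**Figure D3:**
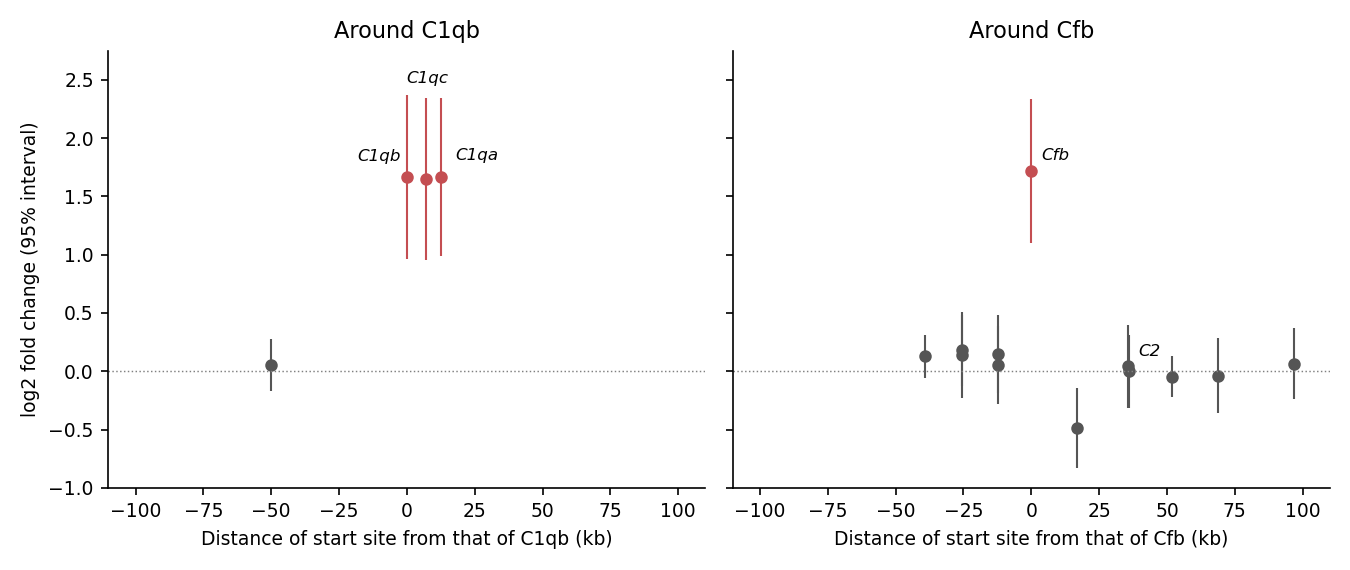
Log2 fold change with 95% interval of each tested gene against the distance of its start site, in kb, from that of C1qb (left) and of Cfb (right), with complement genes of the 9 in red and other genes in grey. The 3 C1q chains sit together near 1.65, while Cfb at 1.72 stands alone above neighbours that include C2 at 0.04.

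Cfd, or adipsin, cleaves factor B and is known as an adipocyte product. Cfd measured 40.5, 30.7 and 4.35 FPKM in ACT + IL-2 and 96.6, 46.6 and 10.3 FPKM in ACT + NKTR-214. The groups overlapped widely, and the log2 fold change of 0.97 did not pass (95% interval -0.47 to 2.41, limma adjusted p = 0.317). The summed FPKM of 5 adipocyte markers in the same tumors was 69.7, 35.2 and 21.4 against 129, 112 and 36.3, and replicate 3 was the lowest of each group in both measures. Most of each sum was Fabp4 alone, at 59.5, 29.2 and 20.4 FPKM against 103, 99.1 and 33.2 FPKM.

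Of the terminal pathway, 2 of 3 genes tested rose, both at low levels. Hc, which encodes C5, the source of the C5a that C5ar1 binds, had means of 0.218 and 0.574 FPKM with overlapping groups (log2 fold change 0.36, limma adjusted p = 0.0346). C6, a part of the lytic pore named after its value was seen, had means of 0.256 and 1.52 FPKM (log2 fold change 1.00, limma adjusted p = 0.000159).

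Of the soluble regulators, Serping1, the inhibitor of the C1 proteases, rose from 53.7 ± 18.9 to 142 ± 35.1 FPKM (log2 fold change 1.41, limma adjusted p = 0.000197). Its 3 ACT + NKTR-214 tumors all lay above the ACT + IL-2 tumors. Cfi, a protease that inactivates C3b, had means of 0.0905 and 0.145 FPKM and did not pass (0.07, limma adjusted p = 0.565).

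Membrane regulators protect host cells, and 3 of 4 tested rose. Cd55, decay accelerating factor, rose from 0.978 to 3.85 FPKM (log2 fold change 1.32, limma adjusted p = 9.1e-05). The others were Cr1l, or Crry, at 0.64 (limma adjusted p = 0.00398) and Cd59a, which blocks pore formation, at 0.54 (limma adjusted p = 0.00589).

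Other complement receptors rose in 5 of 6 genes tested. The integrin chains of complement receptors 3 and 4, which bind C3 fragments, were among those that rose: Itgb2, their common chain, from 23.7 to 104 FPKM (log2 fold change 2.13), Itgam from 13.9 to 49.1 FPKM (1.81) and Itgax from 4.60 to 16.4 FPKM (1.65). Of the Itgam windows, 66.3% are also in the overlapping gene Gm49368, so its level is uncertain. C5ar2, the second C5a receptor, had means of 0.201 and 0.646 FPKM (0.44, limma adjusted p = 0.014). Cd93, first described as a C1q receptor, gave 0.67 with overlapping groups (limma adjusted p = 0.0426). Vsig4, the complement receptor of resident macrophages, did not pass at 0.03 (limma adjusted p = 0.815).

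Markers of several cell types differed between the same tumors. All 8 macrophage and monocyte markers were higher, their summed FPKM running from 202 to 557 in ACT + IL-2 and from 1008 to 1824 in ACT + NKTR-214. Lyz2 alone made up most of each sum, with 370 of 557 in ACT + IL-2 replicate 1 and 1367 of 1824 in ACT + NKTR-214 replicate 2. Adgre1 and Cd14 overlapped between the groups. All 5 T cell markers tested were higher (7.16 to 18.1 against 98.7 to 216), as were 5 of 6 neutrophil (4.73 to 10.9 against 22.7 to 51.9), 4 of 6 dendritic cell (5.14 to 8.59 against 11.9 to 18.5) and 5 of 6 fibroblast markers (216 to 645 against 578 to 1160). Only 1 of 6 endothelial and 2 of 5 adipocyte markers were higher. The melanocyte markers, which define B16-F10, were abundant in every tumor, with 5 of 7 lower and summed FPKM of 5413 to 6933 against 2664 to 3763. Hepatocyte markers stayed at or below 0.378 FPKM, with Serpina1a listed at 0 in all tumors. ACT + IL-2 replicate 1, the highest of its group in all 9 complement genes, also had the highest sum of its group in all 7 immune, stromal, endothelial and adipocyte lists, among them macrophage and monocyte (557), fibroblast (645) and T cell (18.1). The part of these cell types in the complement levels was not tested.

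Each of the 9 genes was then set against the mean log2(FPKM + 1) of the 8 macrophage and monocyte markers in the same tumor. Relative to that mean the C1q chains were level between groups, with differences of 0.01 for C1qa, 0.01 for C1qb and -0.01 for C1qc (exact permutation p = 0.8, 1 and 0.9). Cfb (0.06), Cfp (0.26) and C3ar1 (0.17) also overlapped between groups (exact permutation p = 0.6, 0.2 and 0.2), and so did C4b at -0.62 (p = 0.2, exact). Single tumors weighed on these differences: that of C4b was -0.35 without ACT + NKTR-214 replicate 2 and -0.41 without ACT + IL-2 replicate 3, and that of C3ar1 was 0.07 without ACT + NKTR-214 replicate 3. C3 stood 0.86, 1.23 and 0.76 above the markers in ACT + IL-2 and 2.16, 1.98 and 1.83 above them in ACT + NKTR-214. It was the only one of the 9 to be higher relative to the markers without overlap, by 1.05 (exact permutation p = 0.1, the smallest possible). C5ar1 went the other way without overlap, from -1.55, -1.60 and -1.35 to -2.29, -1.98 and -1.82, a difference of -0.53 (exact permutation p = 0.1). The markers themselves had log2 fold changes from 0.95 for Adgre1 and 1.10 for Fcgr1 to 2.31 for Lyz2, so that of C5ar1 (1.13) lies within their range and that of C3 (2.70) above it. With Ptprc, the pan-leukocyte gene CD45, in place of the markers, the differences were 0.34 for C3 and between -1.32 and -0.44 for the other 8.

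**Figure D4:**
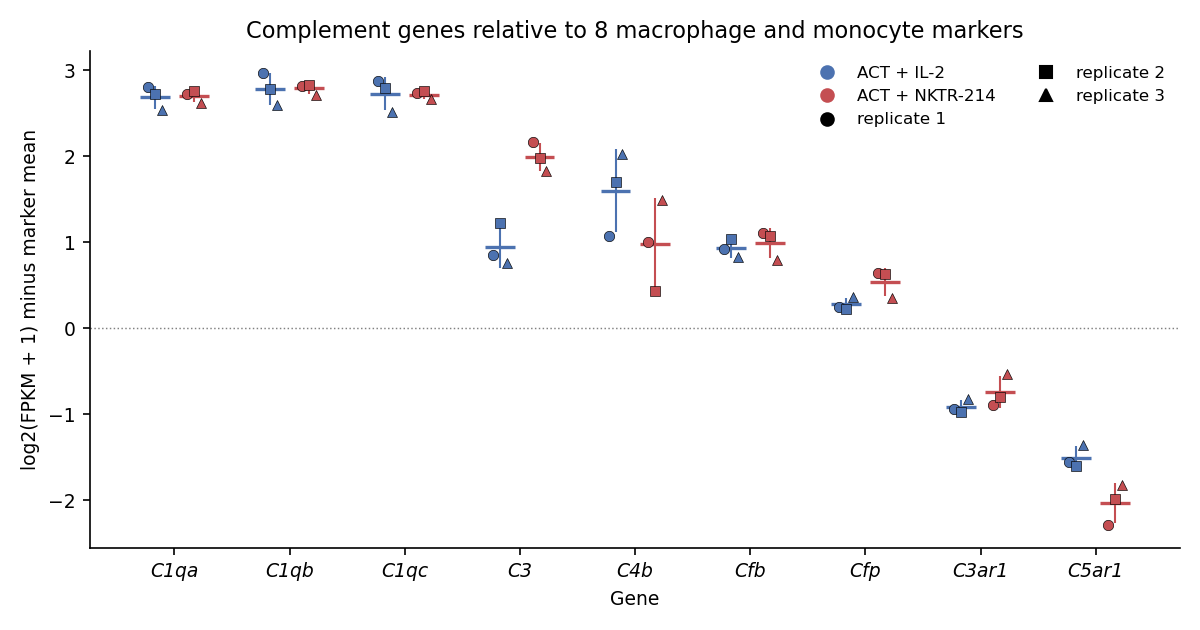
Difference between log2(FPKM + 1) of each gene and the mean of 8 macrophage and monocyte markers in the same tumor, with blue for ACT + IL-2, red for ACT + NKTR-214, bars for means and lines for SD (n = 3). The groups overlap for the C1q chains, C4b, Cfb, Cfp and C3ar1, while C3 is higher in all 3 red tumors (1.83 to 2.16) and C5ar1 lower (-2.29 to -1.82).

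The genes with the closest profile over the 6 tumors were sought among 8098 genes with a mean of at least 5 FPKM (8096 for the C1q chains), by the root mean square distance of centred log2 values. For the C1q chains these were Pirb (0.0759), Csf1r (0.0787) and Vsir (0.0788). C3 was nearest to Rac2 (0.137), Hcst (0.141) and Spn (0.152), and C4b to Spsb1 (0.0844), Il12rb1 (0.0934) and Ctso (0.106). For the alternative pathway, Cfb was nearest to Cyth4 (0.0566), Clec12a (0.0712) and Hcls1 (0.0749), and Cfp to Ucp2 (0.0318), Ly6e (0.0908) and Tmsb4x (0.0909). C3ar1 was nearest to Itgam (0.0360), Clec4n (0.0701) and Cd68 (0.0763), and C5ar1 to Bgn (0.0290), Serpinf1 (0.0861) and Stab1 (0.0901). The 6 tumors share 1 group difference, so these distances describe likeness in these libraries only.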

How the data were processed

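RNA from 6 B16-F10 tumors at day 12 was sequenced by the authors as 50-base single-end reads, mapped to GRCm38 with HISAT2 version 2.0.4 and counted per gene with HTSeq, and they deposited these as FPKM, not log-transformed, with a column for each tumor. The gene annotation they used is not given in the sources used here. All 6 columns were used, and no columns were identical. Groups were taken from the sample labels. The labels do not say more of the replicates than that they are separate tumors.

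Values were taken as log2(FPKM + 1) and genes whose mean reached 0.1 FPKM were tested with limma 3.58.1 in R 4.3.3 (eBayes with an intensity trend), Benjamini-Hochberg adjustment and a threshold of 0.05, after the fit was tested on simulated data. Differences between genes within a tumor were tested by exact permutation of the group labels (two-sided, no p below 0.1 possible). Depth was estimated from the step between low FPKM values and GENCODE vM21 exon lengths, and exon windows of 50 bases were compared between genes. Motifs were searched in RefSeq promoters (GRCm38.p6), where 6 of the 9 genes had an entry. Python 3.11.15, pandas 2.3.3, numpy 2.4.6, scipy 1.17.1 and matplotlib 3.10.9 were used.

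The 9 genes, the other lists and the tests were chosen with earlier results of these data known. Genes named are the 9, other complement genes past the threshold whose mean reached 1 FPKM, the set C2, C4a, Hc, Cfd, Cfi, Serping1, C1s1, C1ra, Itgam, Itgb2, C5ar2 and Vsig4 whatever their values, the 3 closest profiles per gene, and those said to be chosen later. Ephb2 and Zbtb12, neighbours of the 9 genes, the markers Adgre1, Cd14, Fcgr1, Lyz2, Fabp4 and Serpina1a, and the gene copies C1rb and C1s2 were named after their values were seen. The values of 1 gene of the lists are not reported here. Alternatives tried were a filter at a mean of 1 FPKM or none, a pseudocount of 0.1, eBayes without the trend, 75th percentile scaling, quantile normalization, no moderation, the replicate number as a block, Ptprc in place of the macrophage markers, and each tumor left out in turn.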

Additional observations from a re-analysis of the deposited data

How the results depend on the processing

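All 126 fits of the 9 genes under the alternatives kept a higher level in ACT + NKTR-214, and 19 of them no longer passed the threshold. Without the filter on low genes, 2 of the 9 genes, 5 of the other complement genes, and 1193 genes higher and 395 lower over the whole table passed. Without moderation these counts were 0, 0, 101 and 27. Leaving out 1 tumor at a time gave 6 to 9 of the 9 genes and 11 to 18 other complement genes, and over all genes tested 2005 to 3476 genes higher and 636 to 1996 lower, the fewest complement genes without ACT + IL-2 replicate 2. Scaling moved mainly the count of lower genes: beside 2940 higher and 1173 lower in the values as deposited, 75th percentile scaling gave 3231 higher and 3774 lower, and quantile normalization 2691 higher and 4525 lower, with medians over all genes of -0.03 and -0.10 in place of 0.05. All 9 genes passed under both scalings. Relative to the macrophage and monocyte markers, leaving out 1 tumor at a time gave 0.95 to 1.18 for C3, -0.63 to -0.40 for C5ar1, -0.89 to -0.35 for C4b, 0.21 to 0.35 for Cfp, 0.07 to 0.24 for C3ar1, 0.01 to 0.16 for Cfb and -0.12 to 0.10 for the C1q chains. The causes of these changes were not tested. Same-numbered tumors correlated at -0.21, -0.07 and 0.40 in their deviations from the group means, and differently numbered ones between -0.54 and 0.59. With 3 tumors per group this cannot settle whether the numbers pair them. With the replicate block 9 of the 9 genes and 18 other complement genes passed, and 3090 genes were higher and 1227 lower.

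The data hold 3 tumors per group at 1 time point, and tumors without IL-2 or NKTR-214 were not analysed here. FPKM values are not counts, so no count model was fitted, the estimated depth covers counting error only, and RNA levels do not measure complement protein or its activation.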
